A study of Mus musculus with 8 samples.

Results

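The response of control-guide regulatory T (Treg) cells to their antigen receptor was read from the 4 control-guide libraries of a series of 8: 2 libraries of cells stimulated for 3 h were compared with 2 libraries of mock-treated cells (0 h). The cells were nTreg cells, CD4+ GFP+ cells that were sorted out of the spleen and lymph nodes of RosaCas9/+ Foxp3gfp mice and cultured. These mice carry a Cas9 nuclease allele and a green fluorescent reporter of Foxp3, the transcription factor that specifies the Treg lineage. The control-guide cells received the guide RNA sgNC and were given DPBS, a salt buffer, or antibodies to CD3 and CD28, which engage the T cell receptor (TCR) complex and its main costimulatory receptor. The other 4 libraries, 2 mock-treated and 2 stimulated for 3 h, came from cells of the same mouse genotype with a guide against Foxp3 (sgFoxp3), and enter below as the comparison and in the shared estimate of spread. All 4 groups therefore share Cas9, the Foxp3 reporter, a guide RNA and a period of culture, and the control-guide cells are not cells taken straight from a mouse. The sources used here do not tie libraries to mice or cultures, so p-values reflect only how far these libraries spread, and that spread may be technical. Mock treatment is labelled 0 h, so 3 h more of culture and stimulation itself cannot be told apart.

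As background, the TCR signals through the kinases LCK and ZAP70 and the adaptor LAT to calcium and NFAT, to RAS, ERK and AP-1, and to protein kinase C and NF-kappaB, while CD28 feeds the PI3K and AKT branch that restrains FOXO factors. Immediate early genes are transcribed from factors already present in the cell, and their products drive a later wave of cytokine, metabolic and cell cycle genes. Treg cells need TCR signals to suppress other T cells, yet they are known for low production of IL-2 and other effector cytokines, and for dependence on IL-2 made by other cells.

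The control-guide libraries held 38729009 and 42698042 expected counts at 0 h and 48626432 and 45518491 at 3 h, and 16642 of 55665 annotated genes passed the count filter. Values below are CPM, expected counts scaled to the TMM-adjusted size of the library, and a log2 change is 3 h minus 0 h with its standard error. Values in brackets after several genes follow the order of the genes. A call required an adjusted p (edgeR quasi-likelihood test, Benjamini-Hochberg) below 0.05, and "rose" or "fell" is written only of called genes. Of the genes tested, 13620 were called (81.8%), 6808 of them higher (40.9%) and 6812 lower (40.9%) at 3 h. With a 2-fold minimum added, 7662 genes were called (46%), 3636 of them higher (21.8%) and 4026 lower (24.2%), and with a 4-fold minimum 1675 (10.1%) and 1692 (10.2%). In 14933 genes (89.7%) both libraries of one time lay above both of the other. The first principal component of the 4 libraries, with 94.9% of their variance, parted 0 h from 3 h. With so many calls, a call alone says little about a gene group, and each group below is read by direction and size against these shares and against the median change of all genes tested, -0.010. The lists were chosen with earlier results of these data known. A list's count therefore describes its members and is not a test of a pathway. Scaling moved that median: it was -0.25 with upper-quartile scaling, which put 41.4% of the calls higher, and -0.20 on the log2(TPM+1) scale, which put 37.3% higher, against 49.99% with TMM scaling. Changes of a gene or a list median that are small in size therefore depend on the scale, and a list's median in brackets follows where another scale moved it by over 1.5 times.

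The transcripts that rose at least 4-fold made up 2.26% and 2.29% of all TPM at 0 h and 14.2% and 14% at 3 h. Those that fell at least 4-fold made up 5.37% and 5.44% of all TPM at 0 h and 0.686% and 0.67% at 3 h. Both sets were chosen by their change in these same libraries, so the direction of these shares was fixed by the choice. The shares give only how much of the transcript pool each set held. By CPM gained or lost, the largest rises were Il2ra, Hspa8, Ccnd2, Ncl, Hsp90ab1, Actg1, Eef1a1 and Nr4a3, and the largest losses included Arhgap45, Samhd1, Neat1, Txnip, Ablim1, Ifngr1 and Shisa5. The rise of Eef1a1, a translation elongation factor, did not pass the test on the log2(TPM+1) scale (log2 change 0.012). Il2ra encodes the alpha chain of the high-affinity IL-2 receptor and measured 1285 and 1312 CPM at 0 h and 5099 and 4928 CPM at 3 h. The plot of change against level shows all genes tested, with the genes of these extremes marked.

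**Figure D1:**
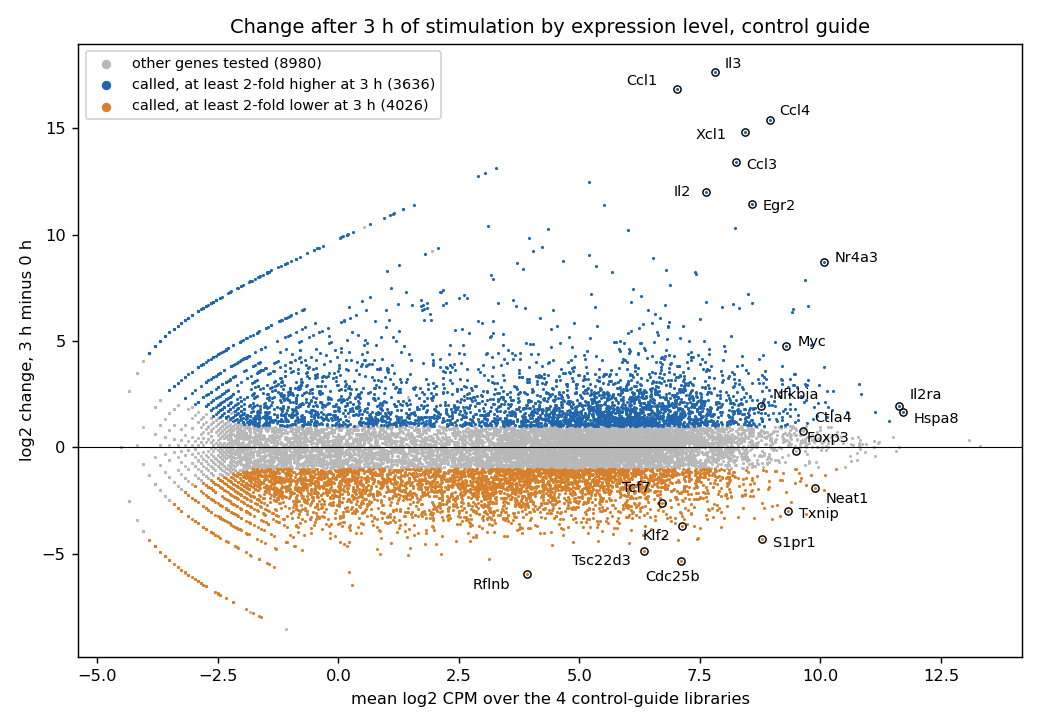
Log2 change (3 h minus 0 h, control guide, vertical axis) of the 16642 genes tested against their mean log2 CPM over the 4 control-guide libraries (horizontal axis); blue points are called genes with at least 2-fold higher level at 3 h, orange points at least 2-fold lower, grey points the rest. Il3, Ccl1, Ccl4, Xcl1 and Il2 lie at the top, Tsc22d3, S1pr1, Cdc25b and Rflnb among the lowest well-expressed genes, and Foxp3 and Ctla4 near 0; the heights of Il3 and Ccl1, which had 0 counts at 0 h, depend on the prior count of the fit, as do the curved rows of points at the left, which are genes with few or no counts at 1 of the times.

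Foxp3 itself (ENSMUSG00000039521.13, chrX:7573644-7595245, plus strand, GRCm38) measured 764 and 776 CPM at 0 h and 679 and 673 CPM at 3 h, a log2 change of -0.19 ± 0.039 with an adjusted p of 1.34e-04 (edgeR). The reporter-sorted cells thus carried Foxp3 RNA in all 4 libraries, with less at 3 h, and the change was -0.56 on the log2(TPM+1) scale and -0.42 with upper-quartile scaling. Sequences of 3 promoters, from the RefSeq promoter table (GRCm38.p6; 250 bases before to 50 after the start, read 5′ to 3′ on the gene's strand), are shown because the gene groups they stand for moved together: Nr4a1 for the immediate early factors (chr15:101254269-101274795, plus strand for the gene; promoter chr15:101266596-101266895, plus strand), Nfkbia for the NF-kappaB system (chr12:55492598-55492897, minus strand) and Tsr1 for ribosome biogenesis (chr11:74897830-74898129, plus strand). Capitals mark matches on either strand: in Nr4a1 the cAMP response core TGACG, present 4 times and each time as its reverse complement CGTCA, in Nfkbia the kappaB decamer consensus, and in Tsr1 the E-box CACGTG.
Nr4a1: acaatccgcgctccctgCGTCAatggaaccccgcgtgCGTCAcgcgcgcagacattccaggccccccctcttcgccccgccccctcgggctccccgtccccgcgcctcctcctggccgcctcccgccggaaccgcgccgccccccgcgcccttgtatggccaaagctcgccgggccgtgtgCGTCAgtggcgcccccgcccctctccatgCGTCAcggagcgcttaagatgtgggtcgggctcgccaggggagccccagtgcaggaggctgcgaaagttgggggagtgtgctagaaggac
Nfkbia: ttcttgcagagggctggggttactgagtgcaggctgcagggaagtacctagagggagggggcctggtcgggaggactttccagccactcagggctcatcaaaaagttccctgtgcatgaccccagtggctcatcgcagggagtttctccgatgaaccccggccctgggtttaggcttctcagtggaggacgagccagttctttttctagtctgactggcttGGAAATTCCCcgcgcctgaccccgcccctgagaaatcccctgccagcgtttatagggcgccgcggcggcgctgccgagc
Tsr1: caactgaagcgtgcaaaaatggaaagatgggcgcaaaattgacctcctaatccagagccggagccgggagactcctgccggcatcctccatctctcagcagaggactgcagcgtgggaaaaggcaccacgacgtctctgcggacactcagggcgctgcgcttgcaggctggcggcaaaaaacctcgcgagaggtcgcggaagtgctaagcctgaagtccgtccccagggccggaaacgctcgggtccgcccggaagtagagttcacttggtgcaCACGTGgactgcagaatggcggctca
Of the genes tested, 10865 had a promoter entry, and the shares with a match among them were 34.6% for TGACG, 12.3% for the kappaB decamer and 11.4% for CACGTG. Only promoter entries with a match were eligible to be shown, so the matches in these 3 sequences were fixed by the choice. Tsr1 was taken because it had the largest rise of its list among members with an E-box. A match is a stretch of letters and was not tested as a binding site.

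Among the immediate early transcription factors, the EGR zinc finger and NR4A orphan receptor genes, listed with the EGR corepressors Nab1 and Nab2, moved in a single direction. In this list 9 of 9 tested genes rose, 0 fell and 0 did not pass the test, with a median log2 change of 6.65, and 8 rose at least 2-fold. Nr4a1 (NUR77), widely used as a reporter of TCR signal strength, measured 16.2 and 17.5 CPM at 0 h and 1672 and 1703 CPM at 3 h, a log2 change of 6.65 ± 0.050. Egr1 (chr18:34859823-34864984, plus strand) measured 5.03 and 5.1 CPM at 0 h and 489 and 492 CPM at 3 h, a log2 change of 6.6 ± 0.062. Egr2, linked to restraint of T cell activation, measured 0.246 and 0.306 CPM at 0 h and 764 and 768 CPM at 3 h, a log2 change of 11.42 ± 0.23. In each of these 3 genes both stimulated libraries lay far above both mock-treated ones, and the libraries of 1 time lay close together. Nr4a3, Egr3 and Nr4a2 rose (log2 changes 8.69 ± 0.068, 8.15 ± 0.11 and 6.46 ± 0.094), which covers the other main members of both families. Egr4 had 0 counts at 0 h and was at least 132-fold higher at 3 h, against 3 counts over the group, but reached only 4.24 CPM. Egr4 passed the count filter only through other groups and could not fall, so its place among the 9 risers was in part set by the filter. The corepressors moved least: Nab2 and Nab1 rose (log2 changes 2.14 ± 0.038 and 0.70 ± 0.042). Of the 7 genes of this list with a promoter entry, 6 held TGACG; Nab2 did not.

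AP-1 factors, the dimers of FOS, JUN, BATF, ATF and small MAF proteins, also rose: 13 of 13 tested genes rose, 0 fell and 0 did not pass the test, with a median log2 change of 2.55. Fosl1 (FRA-1) measured 0 and 0.0612 CPM at 0 h and 88.5 and 96.5 CPM at 3 h, a ratio of 2889-fold, with a counting interval of 988 to 14014. Atf3, a stress-induced member, rose from 0.337 to 103 CPM (log2 change 8.23 ± 0.23). Fos itself, whose RNA is known to peak early and fade, was still higher at 3 h, rising from 2.58 to 25.7 CPM (log2 change 3.31 ± 0.10). The JUN members were already well expressed at 0 h and gained less: Junb, Jun and Jund rose (log2 changes 2.43 ± 0.064, 2.05 ± 0.041 and 1.01 ± 0.073). Batf rose (log2 change 1.99 ± 0.051), a partner of IRF4 in effector Treg cells. TGACG was found in 8 of 12 promoters of the list. Among other immediate early genes, 18 of 22 tested genes rose, 3 fell and 1 did not pass the test, with a median log2 change of 2.04. The stress-response genes Ier3, Gadd45g and Gadd45b rose (log2 changes 5.69 ± 0.23, 5.59 ± 0.12 and 5.01 ± 0.058), as did Bhlhe40, a repressor known in cytokine control, from 86.9 to 584 CPM (log2 change 2.75 ± 0.040). Within the GADD45 family the members diverged: Gadd45a fell from 15.3 to 4.3 CPM (log2 change -1.83 ± 0.10). Ier5l and Btg2 fell (log2 changes -2.29 ± 0.16 and -0.77 ± 0.037), the other members that fell.

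NF-kappaB subunits and inhibitors rose as a set that held activators and brakes alike: 14 of 16 tested genes rose, 2 fell and 0 did not pass the test, with a median log2 change of 2.03. Among subunits, Nfkb1 (p105/p50) measured 326 and 341 CPM at 0 h and 2126 and 2084 CPM at 3 h, a log2 change of 2.66 ± 0.041. Rel, the gene of c-Rel, the subunit most tied to Treg development, rose from 123 to 766 CPM (log2 change 2.63 ± 0.045). Nfkb2, Relb and Rela rose (log2 changes 2.71 ± 0.041, 1.91 ± 0.045 and 1.5 ± 0.039), so Rela, which encodes p65, had the smallest estimate of the 5 subunits. Among inhibitors, Nfkbia (IkappaB-alpha, ENSMUSG00000021025.8) measured 184 and 183 CPM at 0 h and 671 and 717 CPM at 3 h, a log2 change of 1.92 ± 0.043. The nuclear inhibitors Nfkbid and Nfkbiz rose (log2 changes 4.75 ± 0.047 and 3.61 ± 0.043). Tnip3 and Tnfaip3 rose (log2 changes 5.68 ± 0.11 and 1.81 ± 0.039); they encode A20 (Tnfaip3) and a partner of it. The exceptions were Cyld, a deubiquitinase that limits the pathway, and Tnip1: Cyld and Tnip1 fell (log2 changes -1.75 ± 0.044 and -0.61 ± 0.038). The kappaB decamer was found in 10 of 13 promoters of the list (76.9%), and Cyld and Tnip1 were among those 10.

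Other NF-kappaB targets followed: 13 of 17 tested genes rose, 4 fell and 0 did not pass the test, with a median log2 change of 2.39. Bcl2l1, which encodes the survival protein BCL-XL, measured 14.6 and 15.3 CPM at 0 h and 549 and 558 CPM at 3 h, a log2 change of 5.21 ± 0.048. The adhesion ligand Icam1 rose from 72.1 to 561 CPM (log2 change 2.96 ± 0.041). Cd83, Cflar and Traf1 rose (log2 changes 5.01 ± 0.050, 2.42 ± 0.041 and 2.05 ± 0.040), a surface molecule, a caspase-8 inhibitor and a signalling adaptor. The 4 members that went the other way included the homing receptor Ccr7: Ccr7, Nfkbil1, Birc2 and Relt fell (log2 changes -1.68 ± 0.039, -1.02 ± 0.10, -0.85 ± 0.039 and -0.69 ± 0.066). The kappaB decamer was in 3 of 13 promoters of this list (23.1%).

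Calcium and NFAT genes were split: 8 of 21 tested genes rose, 11 fell and 2 did not pass the test, with a median log2 change of -0.29 (-0.53 with upper-quartile scaling and -0.56 on log2(TPM+1)). Orai1, the pore of the store-operated calcium channel, rose from 22.3 to 262 CPM (log2 change 3.56 ± 0.044). Its paralogue and its calcium sensor went down: Orai2 and Stim1 fell (log2 changes -1.86 ± 0.040 and -1.07 ± 0.044). Among the calcium-regulated NFAT factors, Nfatc1 rose (log2 change 1.61 ± 0.038), whereas Nfatc2 and Nfatc3 fell (log2 changes -1.26 ± 0.041 and -1.69 ± 0.043). Nfat5, the calcium-independent member known for osmotic responses, rose from 479 to 1795 CPM (log2 change 1.9 ± 0.054). The calcineurin inhibitors of the RCAN family diverged too: Rcan1 rose (log2 change 1.55 ± 0.063) and Rcan3 fell (log2 change -1.63 ± 0.042).

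Feedback regulators of ERK mostly rose: 13 of 17 tested genes rose, 3 fell and 1 did not pass the test, with a median log2 change of 2.98 (1.7 on log2(TPM+1)). Spry1, an inhibitor of RAS and ERK signalling, measured 6.81 and 6.77 CPM at 0 h and 745 and 764 CPM at 3 h, a log2 change of 6.8 ± 0.061. Both 3 h libraries thus held far more Spry1 than both 0 h libraries. Of its relatives, Spred1 and Spry2 rose (log2 changes 4.91 ± 0.080 and 2.98 ± 0.20), and Spry4, with 0 counts at 0 h, was at least 25.4-fold higher at 3 h but reached only 0.813 CPM. Spry4 passed the count filter only through other groups and could not fall, so its place among the 13 risers was in part set by the filter. The DUSP genes encode phosphatases of MAP kinases, and Dusp1, Dusp6, Dusp4 and Dusp2 rose (log2 changes 4.19 ± 0.062, 3.68 ± 0.076, 3.62 ± 0.048 and 3.04 ± 0.042). Others of the same family went down: Dusp10, Dusp7 and Dusp11 fell (log2 changes -1.27 ± 0.088, -0.75 ± 0.057 and -0.49 ± 0.037).

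Effector and regulatory cytokines held some of the largest changes of the comparison: 24 of 27 tested genes rose, 2 fell and 1 did not pass the test, with a median log2 change of 6.78 (4.02 on log2(TPM+1)). Il2 (ENSMUSG00000027720.7, chr3:37120523-37125959, minus strand), the growth factor that Treg cells are known to repress, measured 0.067 and 0.122 CPM at 0 h and 392 and 398 CPM at 3 h, a log2 change of 11.98 ± 0.62. Il3 (chr11:54265303-54267277, minus strand) had 0 counts in both 0 h libraries and 444 and 463 CPM at 3 h, at least 14164-fold higher. Csf2 (chr11:54247271-54249667, minus strand), the neighbour of Il3 and the gene of GM-CSF, measured 0.156 and 0.0612 CPM at 0 h and 124 and 135 CPM at 3 h, a log2 change of 10.22 ± 0.50. All 3 genes, undetected or nearly so in mock-treated cells, were well-expressed RNAs in both stimulated libraries. Per length, Il2 stood at 0.13 and 0.24 TPM at 0 h and 572 and 568 TPM at 3 h, and Il3 at 0 and 0 TPM at 0 h and 1411 and 1429 TPM at 3 h. Foxp3 stood at 486 and 501 TPM at 0 h and 337 and 329.8 TPM at 3 h, below Il2 and Il3 in both 3 h libraries on this scale. Of the type 2 cytokines, Il13 had 1 count at 0 h and a ratio of 1632-fold, with a counting interval of 292 to 64507. Il4 rose from 0.052 to 6.63 CPM (log2 change 6.9 ± 0.66), and Il31, with 0 counts at 0 h, was at least 471-fold higher. Tnf, Ifng, Il17a and Il17f rose (log2 changes 7.21 ± 0.067, 8.91 ± 0.20, 7.03 ± 0.41 and 6.77 ± 0.31), the signature cytokines of type 1 and type 17 helper cells. The low members Il5, Il6, Il9, Il22 and Il24 each had 0 or 1 counts over the 0 h libraries, and their changes rest on few counts. Members with 0 counts at 0 h, such as Il3 and Il31, passed the count filter only through other groups and could not fall. The list's count of risers and its median were thus in part set by the filter.

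Cytokines tied to Treg function rose as well. Il10, an inhibitory cytokine, measured 4.09 and 3.81 CPM at 0 h and 228 and 232 CPM at 3 h, a log2 change of 5.87 ± 0.079. Lif, a member of the IL-6 family, rose from 5.4 to 581 CPM (log2 change 6.75 ± 0.062). Tgfb1, Areg and Penk rose (log2 changes 1.62 ± 0.044, 8.75 ± 0.40 and 6.67 ± 0.11), for transforming growth factor beta 1, the tissue repair factor amphiregulin and the enkephalin precursor. Ebi3, a subunit of IL-35 and IL-27, did not pass the test, with 8.56 CPM at 0 h and 9.62 CPM at 3 h (log2 change 0.17 ± 0.085), and was called lower on the log2(TPM+1) scale (-0.19). Its partner Il12a rose from 0.364 to 0.704 CPM (log2 change 0.94 ± 0.38). The Il12a call was lost when replicate 2 of 0 h (log2 change 0.79) or of 3 h (log2 change 0.43) was left out, with upper-quartile scaling (log2 change 0.71), with DESeq2 (log2 change 0.94) and on the log2(TPM+1) scale (log2 change 0.12). The members that fell were Il16, from 242 to 41.9 CPM (log2 change -2.53 ± 0.041), and Tgfb3, from 0.754 to 0.367 CPM (log2 change -1.04 ± 0.31). The plot of rising genes by library sets several of these cytokines beside the immediate early factors.

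**Figure D2:**
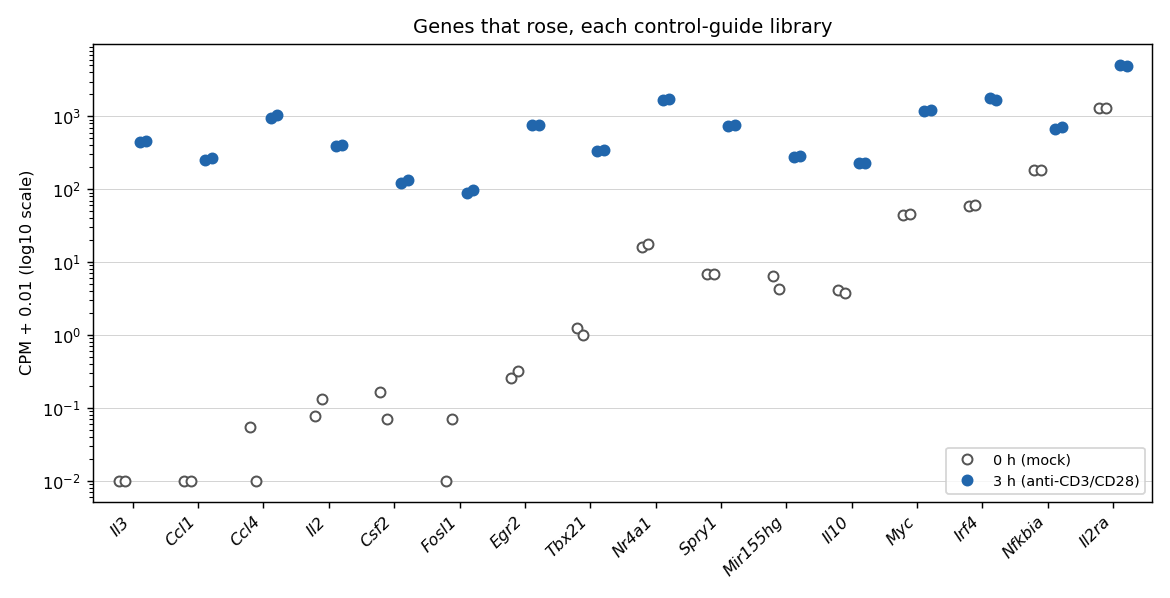
CPM in each control-guide library (vertical axis, log10 scale, after adding 0.01 so that libraries with 0 counts can be drawn) for 16 genes that rose; open circles are the 2 mock-treated (0 h) and filled circles the 2 stimulated (3 h) libraries. No 0 h library of a gene reaches its 3 h libraries, from Il3, with 0 counts at 0 h, to Il2ra, at 1285 and 1312 CPM at 0 h.

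Cytokine mRNAs are known to be short-lived through AU-rich elements in the 3′ untranslated region (UTR), where decay factors such as tristetraprolin (ZFP36) bind. The AU-rich nonamer TTATTTATT was present in the longest 3′ UTR (GENCODE M21, GRCm38) of 10 of 27 cytokine genes (37.0%), against 1073 of 12791 protein-coding genes tested (8.39%). Windows of 30 bases on the gene's strand are shown for 3 cytokines that were at or near 0 counts at 0 h, with the nonamer in capitals: Il2 (chr3:37120897-37120926, minus strand), Il13 (chr11:53631740-53631769, minus strand) and Il31 (chr5:123480216-123480245, minus strand).
Il2: ttatctgaaaTTATTTATTatattgaattg
Il13: cttcttgatcTTATTTATTatggttgtgtg
Il31: gcagctatatTTATTTATTtatgtactgag
The other 7 were Tnf, Csf2, Il21, Il22, Lif, Il12a and Areg, and Il3, Il4, Il10 and Ifng had no match to these letters. Over all genes, the share with the nonamer was 13.8% (176 of 1279) among those at least 4-fold higher and 7.97% (101 of 1268) among those at least 4-fold lower, with median UTR lengths of 1105 and 1207 bases. Within UTRs of 1000 to 2000 bases the shares were 19.5% and 8.21%, beside 9.09% for all genes. Regulators of mRNA decay were themselves split: 9 of 16 tested genes rose, 6 fell and 1 did not pass the test, with a median log2 change of 0.29 (0.049 with upper-quartile scaling), a median that was -0.005 on the log2(TPM+1) scale. Regnase family genes, which encode RNases, were higher: Zc3h12c and Zc3h12a rose (log2 changes 4.54 ± 0.10 and 1.32 ± 0.047). Tristetraprolin relatives diverged, since Zfp36l1 and Zfp36 rose (log2 changes 2.24 ± 0.039 and 0.68 ± 0.041) whereas Zfp36l2 fell (log2 change -2.32 ± 0.040).

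Chemokine ligands rose from near silence: of 16 genes on the list 14 were tested, and 14 of 14 tested genes rose, 0 fell and 0 did not pass the test, with a median log2 change of 7.52 (3.24 on log2(TPM+1)). Ccl4, a ligand for chemokine receptors of T and myeloid cells, measured 0.0447 and 0 CPM at 0 h and 961 and 1028 CPM at 3 h, a ratio of 46603-fold, with a counting interval of 12901 to 384821. Xcl1, a ligand for cross-presenting dendritic cells, measured 0 and 0.0408 CPM at 0 h and 661 and 718 CPM at 3 h, a ratio of 32292-fold, with a counting interval of 8939 to 266648. Ccl1, the ligand of CCR8, had 0 counts at 0 h and 252 and 270.3 CPM at 3 h, at least 8164-fold higher. These 3 genes were at or within a few counts of 0 in mock-treated cells and well expressed in both stimulated libraries, and Ccl3, the neighbour of Ccl4, followed them, from 0.0549 to 605 CPM (log2 change 13.41 ± 0.60). The receptor of CCL1 moved less than its ligand: Ccr8 rose (log2 change 3.94 ± 0.047). Ccl20, Cxcl10 and Ccl5 rose (log2 changes 6.93 ± 0.29, 4.81 ± 0.16 and 0.46 ± 0.067), the last with the smallest change of the list, which was a log2 change of 0.042 and not called on the log2(TPM+1) scale. Cxcl9, Cxcl1 and Ccl17 had 0 counts at 0 h and stayed under 1 CPM at 3 h. Like Ccl1, they passed the count filter only through other groups and could not fall. The list's count of risers and its median were thus in part set by the filter. A kappaB decamer was found in 6 of 12 promoters of the list.

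Ligands of the TNF superfamily rose almost without exception: 12 of 13 tested genes rose, 1 fell and 0 did not pass the test, with a median log2 change of 4.48. Tnfsf14 (LIGHT) measured 0.514 and 0.428 CPM at 0 h and 594 and 612 CPM at 3 h, a log2 change of 10.32 ± 0.19. Tnfsf11, the gene of RANK ligand, rose from 5.52 to 359.6 CPM (log2 change 6.03 ± 0.069). Cd40lg, Tnfsf9, Lta and Fasl rose (log2 changes 5.36 ± 0.080, 5.0 ± 0.078, 4.48 ± 0.053 and 4.1 ± 0.082), ligands of CD40, 4-1BB, TNF receptors and FAS. Ltb, next to Tnf and Lta on chromosome 17, had the smallest rise, from 342 to 424 CPM (log2 change 0.31 ± 0.041), which turned to a log2 change of -0.064 and was not called on the log2(TPM+1) scale. The gene of BAFF, Tnfsf13b, fell from 1.72 to 0.593 CPM (log2 change -1.53 ± 0.23). The receptors were divided: 10 of 19 tested genes rose, 7 fell and 2 did not pass the test, with a median log2 change of 0.64 (0.40 with upper-quartile scaling and 0.069 on log2(TPM+1)). The costimulatory receptors that Treg cells carry were among the risers: Tnfrsf9 (4-1BB), Tnfrsf4 (OX40), Tnfrsf1b (TNFR2) and Tnfrsf18 (GITR) rose (log2 changes 3.77 ± 0.043, 2.98 ± 0.042, 0.73 ± 0.039 and 0.64 ± 0.043). Tnfrsf14, a receptor of LIGHT, went against its ligand: Tnfrsf14 fell from 45.4 to 20.7 CPM (log2 change -1.13 ± 0.095). Tnfrsf1a, which did not pass the test, averaged 18.6 CPM at 0 h and 17.3 CPM at 3 h (log2 change -0.11 ± 0.060), and was called lower on the log2(TPM+1) scale (-0.39) and with upper-quartile scaling (-0.35).

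Inhibitory and CD28-family receptors mostly rose: 14 of 23 tested genes rose, 8 fell and 1 did not pass the test, with a median log2 change of 1.55. Ctla4, the inhibitory receptor that Treg cells express constitutively, measured 615 and 563 CPM at 0 h and 1004 and 1015 CPM at 3 h, a log2 change of 0.78 ± 0.044. Pdcd1 (PD-1) rose from 23.4 to 249.6 CPM (log2 change 3.41 ± 0.043), and its ligand gene Cd274 (PD-L1) from 33.9 to 1034 CPM (log2 change 4.93 ± 0.049). Havcr2 (TIM-3), Tigit and Lag3 rose (log2 changes 7.2 ± 0.18, 1.55 ± 0.053 and 1.36 ± 0.064), so checkpoint genes that were low at 0 h had larger log2 changes than Ctla4, which was high from the start. Cd69, an early activation antigen that opposes S1PR1 at the cell surface, rose from 27.7 to 478 CPM (log2 change 4.12 ± 0.30), and Cd44 rose (log2 change 3.43 ± 0.043). Of the CD28-family receptors, Cd28 and Icos fell (log2 changes -0.82 ± 0.042 and -0.23 ± 0.041), and Cd28 is the receptor that the stimulus engages. Cd86, which did not pass the test, averaged 30.6 CPM at 0 h and 29.5 CPM at 3 h (log2 change -0.055 ± 0.053), and was called lower on the log2(TPM+1) scale (-0.40) and with upper-quartile scaling (-0.29).

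Of the Treg signature, 20 of 34 tested genes rose, 13 fell and 1 did not pass the test, with a median log2 change of 0.71 (0.47 with upper-quartile scaling and 0.30 on log2(TPM+1)). Its members thus moved in both directions. Secreted and surface molecules were found on both sides, while the lineage factors and ectoenzymes named here fell. Itgb8, Gzmb, Capg and Lrrc32 (GARP) rose (log2 changes 3.32 ± 0.049, 2.96 ± 0.045, 1.62 ± 0.045 and 0.82 ± 0.040), where Itgb8 encodes an activator of TGF-beta. Il2ra had the largest gain in CPM of any gene named here, a log2 change of 1.95 ± 0.041. The Ikaros relatives Ikzf2 (Helios) and Ikzf4 (Eos) fell (log2 changes -0.60 ± 0.043 and -1.52 ± 0.038). The ectoenzymes that make adenosine, Entpd1 (CD39) and Nt5e (CD73), fell from 96.1 to 20.1 CPM (log2 change -2.26 ± 0.058) and from 565 to 195 CPM (log2 change -1.53 ± 0.063). Fgl2, Socs2 and Itgae fell (log2 changes -2.61 ± 0.069, -1.13 ± 0.036 and -0.89 ± 0.039), and Il2rb and Foxp3 fell by 0.12 (SE 0.039) and 0.19 (SE 0.039) on the log2 scale.

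Cytokine receptors, JAKs and STATs leaned slightly lower: 13 of 33 tested genes rose, 19 fell and 1 did not pass the test, with a median log2 change of -0.17 (-0.41 with upper-quartile scaling and -0.50 on log2(TPM+1)). Ifngr1, the ligand-binding chain of the interferon gamma receptor, measured 1036 and 1037 CPM at 0 h and 110.3 and 112 CPM at 3 h, a log2 change of -3.22 ± 0.042. Il7r, the receptor of naive and memory T cell survival, fell from 615 to 124 CPM (log2 change -2.31 ± 0.042). Ifnar1, Il6ra and Jak1 fell (log2 changes -1.64 ± 0.038, -1.51 ± 0.038 and -1.22 ± 0.043), so receptors for both types of interferon fell with the kinase they share. Rises were seen in the decoy receptor of IL-1 and the IL-18 receptor: Il1r2 and Il18rap rose (log2 changes 5.44 ± 0.088 and 3.4 ± 0.051). Jak2, Stat5a and Il2rg rose (log2 changes 2.85 ± 0.044, 2.15 ± 0.042 and 1.33 ± 0.040), where Il2rg is the chain that the IL-2 receptor shares with other cytokine receptors. Tyk2, which did not pass the test, averaged 132 CPM at 0 h and 129 CPM at 3 h (log2 change -0.037 ± 0.038), and was called lower on the log2(TPM+1) scale (-0.40) and with upper-quartile scaling (-0.27). Among feedback inhibitors of cytokine signalling, with the PIM kinases, 7 of 11 tested genes rose, 2 fell and 2 did not pass the test, with a median log2 change of 0.48 (0.24 with upper-quartile scaling and 0.13 on log2(TPM+1)). Cish, Socs1 and Pim3 rose (log2 changes 1.54 ± 0.040, 1.29 ± 0.065 and 3.01 ± 0.054), whereas Socs3 and Socs2 fell (log2 changes -1.21 ± 0.050 and -1.13 ± 0.036).

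Genes of the machinery that receives the signal moved both ways: in the TCR complex and proximal signalling list, 14 of 30 tested genes rose, 16 fell and 0 did not pass the test, with a median log2 change of -0.45 (-0.69 with upper-quartile scaling and -0.71 on log2(TPM+1)). The CD3 and zeta chains fell together: Cd3g, Cd3e, Cd3d and Cd247 fell (log2 changes -0.88 ± 0.040, -0.85 ± 0.037, -0.57 ± 0.042 and -0.56 ± 0.037). The coreceptor gene Cd4 fell from 388 to 141 CPM (log2 change -1.46 ± 0.040). Below the receptor, Lcp2 (SLP-76), Zap70 and Lat rose (log2 changes 2.59 ± 0.040, 1.69 ± 0.044 and 1.2 ± 0.046). Grap2 (GADS), the adaptor that links LAT to SLP-76, went the other way and measured 558 and 577 CPM at 0 h and 60.7 and 57 CPM at 3 h, a log2 change of -3.27 ± 0.042. Fyb and Prkcq fell (log2 changes -2.83 ± 0.039 and -2.05 ± 0.041), where Prkcq encodes protein kinase C theta. Of TCR brakes and anergy genes, 9 of 24 tested genes rose, 15 fell and 0 did not pass the test, with a median log2 change of -0.45 (-0.69 with upper-quartile scaling). Rgs16, a regulator of G protein signalling, measured 14.1 and 15.7 CPM at 0 h and 1351 and 1388 CPM at 3 h, a log2 change of 6.52 ± 0.057, whereas its relative Rgs2 fell from 102 to 12.3 CPM (log2 change -3.05 ± 0.054). The phosphatases Ubash3b and Ptpn22 rose (log2 changes 3.28 ± 0.042 and 2.08 ± 0.041), which act on proximal TCR kinases. Dgka, a diacylglycerol kinase that limits RAS signalling, fell from 888 to 131 CPM (log2 change -2.76 ± 0.041).

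All listed PI3K brakes and FOXO targets fell, where 40.9% of all genes tested did. Here 0 of 22 tested genes rose, 22 fell and 0 did not pass the test, with a median log2 change of -1.72. The list, chosen with earlier results of these data known, does not cover every gene of this kind. Klf2 (chr8:72319033-72321656, plus strand), a quiescence factor and FOXO1 target, measured 250.2 and 271 CPM at 0 h and 19.1 and 21.1 CPM at 3 h, a log2 change of -3.7 ± 0.054. S1pr1 (chr3:115710433-115715072, minus strand), a KLF2 target and the receptor for exit from lymphoid organs, measured 839 and 839 CPM at 0 h and 42.8 and 40.8 CPM at 3 h, a log2 change of -4.33 ± 0.045. In both genes each stimulated library lay more than 10 times below each mock-treated one. Tsc22d3 (GILZ), a FOXO and glucocorticoid target, had the largest fall of the list, from 156 to 5.36 CPM (log2 change -4.87 ± 0.067). Pik3ip1, Txnip and Sesn1 fell (log2 changes -3.92 ± 0.068, -2.98 ± 0.041 and -3.31 ± 0.044), inhibitors of PI3K, of glucose uptake and of mTORC1. The FOXO factors themselves had smaller changes: Foxo3 and Foxo1 fell (log2 changes -1.46 ± 0.043 and -1.09 ± 0.038).

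In lymphocyte egress and homing, 11 of 29 tested genes rose, 16 fell and 2 did not pass the test, with a median log2 change of -0.89. S1pr4, Gpr15, Cxcr4 and Selplg fell (log2 changes -4.15 ± 0.061, -3.71 ± 0.10, -2.64 ± 0.049 and -2.62 ± 0.043), receptors for S1P and chemokines and the ligand of P-selectin. The integrins divided by subunit, since Itga4 and Itgb7 fell (log2 changes -2.3 ± 0.046 and -1.55 ± 0.043) and Itgb2 and Itgal rose (log2 changes 0.90 ± 0.038 and 0.57 ± 0.038), the latter the chains of LFA-1. Gpr183, an oxysterol receptor that positions cells in follicles, rose from 5.04 to 194 CPM (log2 change 5.27 ± 0.064).

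**Figure D3:**
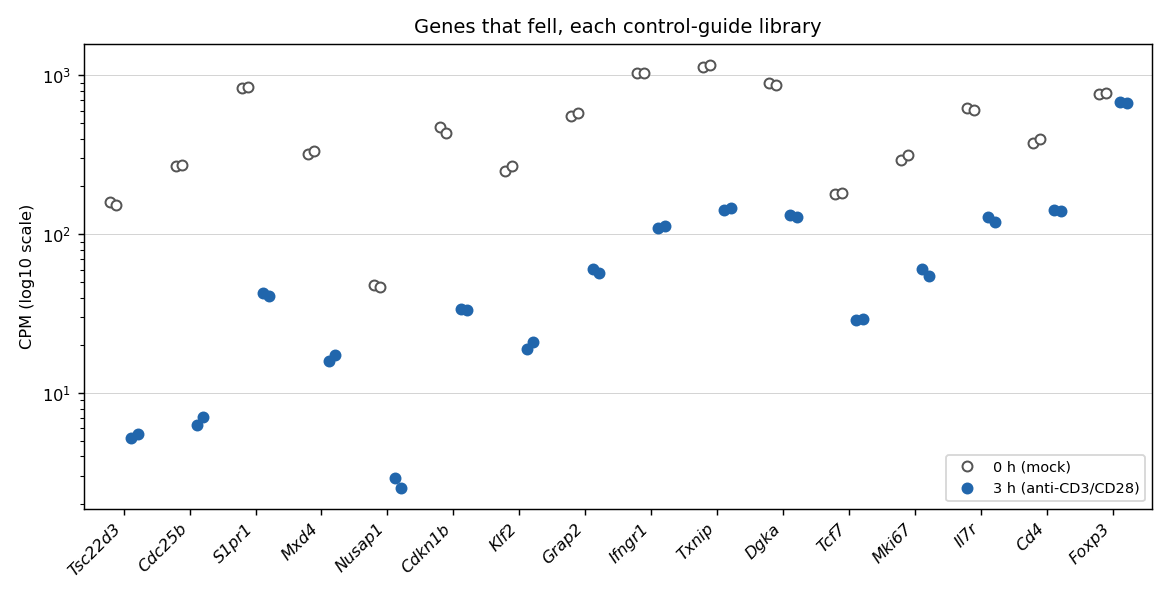
CPM in each control-guide library (vertical axis, log10 scale, nothing added) for 16 genes that fell; open circles are the 2 mock-treated (0 h) and filled circles the 2 stimulated (3 h) libraries. Both 3 h libraries lie below both 0 h libraries for each gene, by a wide margin for Tsc22d3 and S1pr1 and a narrow one for Foxp3.

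A mixed list of naive-state, quiescence and related factors did not move in 1 direction: 15 of 28 tested genes rose, 12 fell and 1 did not pass the test, with a median log2 change of 0.18, and the median was negative with upper-quartile scaling and on the TPM scales (-0.15 on log2(TPM+1)). Tcf7 (TCF-1), a factor of naive and stem-like T cells, measured 179 and 181 CPM at 0 h and 28.9 and 29.1 CPM at 3 h, a log2 change of -2.63 ± 0.043. Klf3, Tob1, Lef1 and Satb1 fell (log2 changes -3.71 ± 0.045, -3.2 ± 0.055, -1.51 ± 0.039 and -1.6 ± 0.038), factors known from resting T cells. Others of the list, which are not all naive-state factors, went up: Zeb2, Gfi1, Slfn2 and Id2 rose (log2 changes 9.05 ± 0.38, 3.66 ± 0.052, 2.99 ± 0.041 and 2.86 ± 0.069). Bach2, a repressor of effector programmes, rose from 251 to 444 CPM (log2 change 0.82 ± 0.042). Helper lineage and effector factors leaned higher: 16 of 24 tested genes rose, 7 fell and 1 did not pass the test, with a median log2 change of 1.27 (0.80 on log2(TPM+1)). Irf4, a factor that effector Treg cells need, measured 59.5 and 61.5 CPM at 0 h and 1758 and 1679 CPM at 3 h, a log2 change of 4.83 ± 0.044. Its relative Irf8 measured 6.75 and 7.24 CPM at 0 h and 1634 and 1652 CPM at 3 h, a log2 change of 7.87 ± 0.060. Tbx21 (T-bet), the factor of type 1 helper cells, measured 1.23 and 0.999 CPM at 0 h and 333 and 342 CPM at 3 h, a log2 change of 8.25 ± 0.12. All 3 stood far above 0 h in both stimulated libraries, and the factors of other helper subsets rose less: Bcl6 and Gata3 rose (log2 changes 1.35 ± 0.048 and 1.19 ± 0.039).

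In the network of MYC, the growth regulator, the activator rose and MXD antagonists fell. Myc (ENSMUSG00000022346.15) measured 44.8 and 45.4 CPM at 0 h and 1192 and 1232 CPM at 3 h, a log2 change of 4.75 ± 0.043. Mxd4, which competes for the shared partner MAX, measured 322 and 335 CPM at 0 h and 15.9 and 17.3 CPM at 3 h, a log2 change of -4.31 ± 0.049. Mxd3, Mxi1 and Mxd1 fell (log2 changes -4.39 ± 0.18, -2.61 ± 0.052 and -0.83 ± 0.036), and the partner gene Max rose from 81.3 to 105 CPM (log2 change 0.37 ± 0.039), though its change was -0.11 on the log2(TPM+1) scale. Across the network 6 of 11 tested genes rose, 4 fell and 1 did not pass the test, with a median log2 change of 0.37 (0.13 with upper-quartile scaling), a median that was -0.11 on the log2(TPM+1) scale.

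Ribosome biogenesis genes rose without exception: 34 of 34 tested genes rose, 0 fell and 0 did not pass the test, with a median log2 change of 3.18, and all 34 rose at least 2-fold, against 21.8% of all genes tested. Bysl, a factor of small subunit assembly, measured 5.21 and 4.89 CPM at 0 h and 146 and 154 CPM at 3 h, a log2 change of 4.89 ± 0.071. Ncl (nucleolin), already abundant at 0 h, measured 535 and 554 CPM at 0 h and 3139 and 3098 CPM at 3 h, a log2 change of 2.52 ± 0.042. The smallest change of the list was that of Npm3, from 46.6 to 167 CPM (log2 change 1.84 ± 0.046). Gnl3, Rrp12, Polr1b and Tsr1 rose (log2 changes 4.6 ± 0.053, 4.56 ± 0.057, 4.35 ± 0.049 and 4.16 ± 0.045), where Polr1b encodes a subunit of RNA polymerase I. An E-box CACGTG, as in the Tsr1 promoter above, was found in 8 of 29 promoters of the list (27.6%). Such a share was not particular to rising lists. It was 35.0% for lysosome and autophagy and 37.5% for TNF receptors, which did not rise as sets, and 5.0% for mitosis. The same letters were in the promoters of 16.3% of genes at least 4-fold higher and 8.63% of those at least 4-fold lower. For the kappaB decamer these shares were 15.3% and 14.3%, and for TGACG 36.6% and 29.1%.

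Other lists of biosynthesis leaned the same way. For nucleotide, one-carbon and polyamine synthesis, 25 of 26 tested genes rose, 1 fell and 0 did not pass the test, with a median log2 change of 1.84. Shmt1, a serine hydroxymethyltransferase, rose from 4.44 to 225 CPM (log2 change 5.67 ± 0.077), and Odc1, which starts polyamine synthesis, from 201 to 1464 CPM (log2 change 2.87 ± 0.041). Srm, Ctps and Cad rose (log2 changes 5.15 ± 0.068, 4.26 ± 0.051 and 2.23 ± 0.043), and the exception was Prps2: Prps2 fell (log2 change -0.53 ± 0.046). For tRNA synthetases, 17 of 20 tested genes rose, 1 fell and 2 did not pass the test, with a median log2 change of 1.46. Iars, Rars and Eprs rose (log2 changes 2.59 ± 0.041, 2.47 ± 0.042 and 2.02 ± 0.041), while Vars fell (log2 change -0.13 ± 0.041), a call lost without replicate 2 of 0 h (log2 change -0.081). For amino acid transport and ATF4 targets, 15 of 23 tested genes rose, 5 fell and 3 did not pass the test, with a median log2 change of 1.36 (0.53 on log2(TPM+1)). Slc7a5 and Slc3a2 encode the chains of the large neutral amino acid transporter, and Slc1a5 a glutamine carrier: Slc7a5, Slc3a2 and Slc1a5 rose (log2 changes 3.28 ± 0.041, 2.36 ± 0.039 and 2.85 ± 0.044). Stress genes of the same list went down although Atf4 did not: Trib3 and Ddit3 fell (log2 changes -3.19 ± 0.12 and -1.16 ± 0.071) and Atf4 rose (log2 change 1.83 ± 0.040). For heat shock proteins and mitochondrial chaperonins, 17 of 18 tested genes rose, 0 fell and 1 did not pass the test, with a median log2 change of 1.64. Hspa8, a constitutive chaperone, measured 1587 and 1647 CPM at 0 h and 5083 and 5019 CPM at 3 h, a log2 change of 1.64 ± 0.041. Hsph1, Hspd1 and Hspa9 rose (log2 changes 3.44 ± 0.044, 3.03 ± 0.041 and 3.0 ± 0.040), the last 2 mitochondrial; Hspa1a and Hspa1b are near-identical copies whose separate values are uncertain.

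For glycolysis, 16 of 21 tested genes rose, 5 fell and 0 did not pass the test, with a median log2 change of 1.49. Hk2, hexokinase 2, rose from 4.48 to 192 CPM (log2 change 5.42 ± 0.072), and Ldha, lactate dehydrogenase A, from 316 to 1098 CPM (log2 change 1.8 ± 0.043). Slc16a1, Pgam1 and Slc2a1 rose (log2 changes 5.08 ± 0.058, 2.48 ± 0.040 and 1.9 ± 0.045), a lactate carrier, a mutase and a glucose transporter. Pdk1, a kinase that limits the use of pyruvate in mitochondria, went down: Pdk1 and Pfkm fell (log2 changes -1.65 ± 0.049 and -2.07 ± 0.092). For ER chaperones and the unfolded protein response, 17 of 21 tested genes rose, 3 fell and 1 did not pass the test, with a median log2 change of 0.83 (0.46 on log2(TPM+1)). Hspa5 (BiP), the main ER chaperone, rose from 172 to 1548 CPM (log2 change 3.17 ± 0.042), and Hyou1 and Xbp1 rose (log2 changes 1.99 ± 0.039 and 0.83 ± 0.037), while Edem1, Pdia3 and Dnajc3 fell (log2 changes -0.73 ± 0.037, -0.42 ± 0.038 and -0.25 ± 0.042). For proteasome subunits, 32 of 34 tested genes rose, 2 fell and 0 did not pass the test, with a median log2 change of 0.997 (0.63 on log2(TPM+1)). Psmd12 and Psmd7 rose (log2 changes 1.73 ± 0.041 and 1.48 ± 0.041), and the pair that fell were immunoproteasome subunits: Psmb8 and Psmb10 fell (log2 changes -0.40 ± 0.041 and -0.35 ± 0.055).

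Mitochondrial and lipid genes changed less. For nuclear respiratory chain genes, 23 of 27 tested genes rose, 1 fell and 3 did not pass the test, with a median log2 change of 0.37 (0.13 with upper-quartile scaling), led by Cycs, cytochrome c, from 35.8 to 242 CPM (log2 change 2.75 ± 0.043). For mitochondrial transcripts, 9 of 13 tested genes rose, 1 fell and 3 did not pass the test, with a median log2 change of 0.29 (0.051 with upper-quartile scaling). For cholesterol and fatty acid synthesis, 13 of 26 tested genes rose, 10 fell and 3 did not pass the test, with a median log2 change of 0.35 (0.11 with upper-quartile scaling). Idi1, Sqle and Fasn rose (log2 changes 4.13 ± 0.060, 2.12 ± 0.060 and 1.34 ± 0.045), enzymes of sterol and fatty acid synthesis, while the sterol exporters Abcg1 and Abca1 fell (log2 changes -2.34 ± 0.050 and -1.89 ± 0.077). The medians of these 3 lists were -0.045, -0.17 and -0.086 on the log2(TPM+1) scale, in that order, so their direction depended on the scale. For lysosome and autophagy, 9 of 27 tested genes rose, 17 fell and 1 did not pass the test, with a median log2 change of -0.47 (-0.70 with upper-quartile scaling and -0.75 on log2(TPM+1)). Tfeb, Ctsd and Ulk1 fell (log2 changes -1.78 ± 0.089, -1.78 ± 0.040 and -1.65 ± 0.040), a regulator of lysosomal genes, a protease and an autophagy kinase, and Ctsz rose (log2 change 2.25 ± 0.039). The plot of lists by change shows all 44 together.

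**Figure D4:**
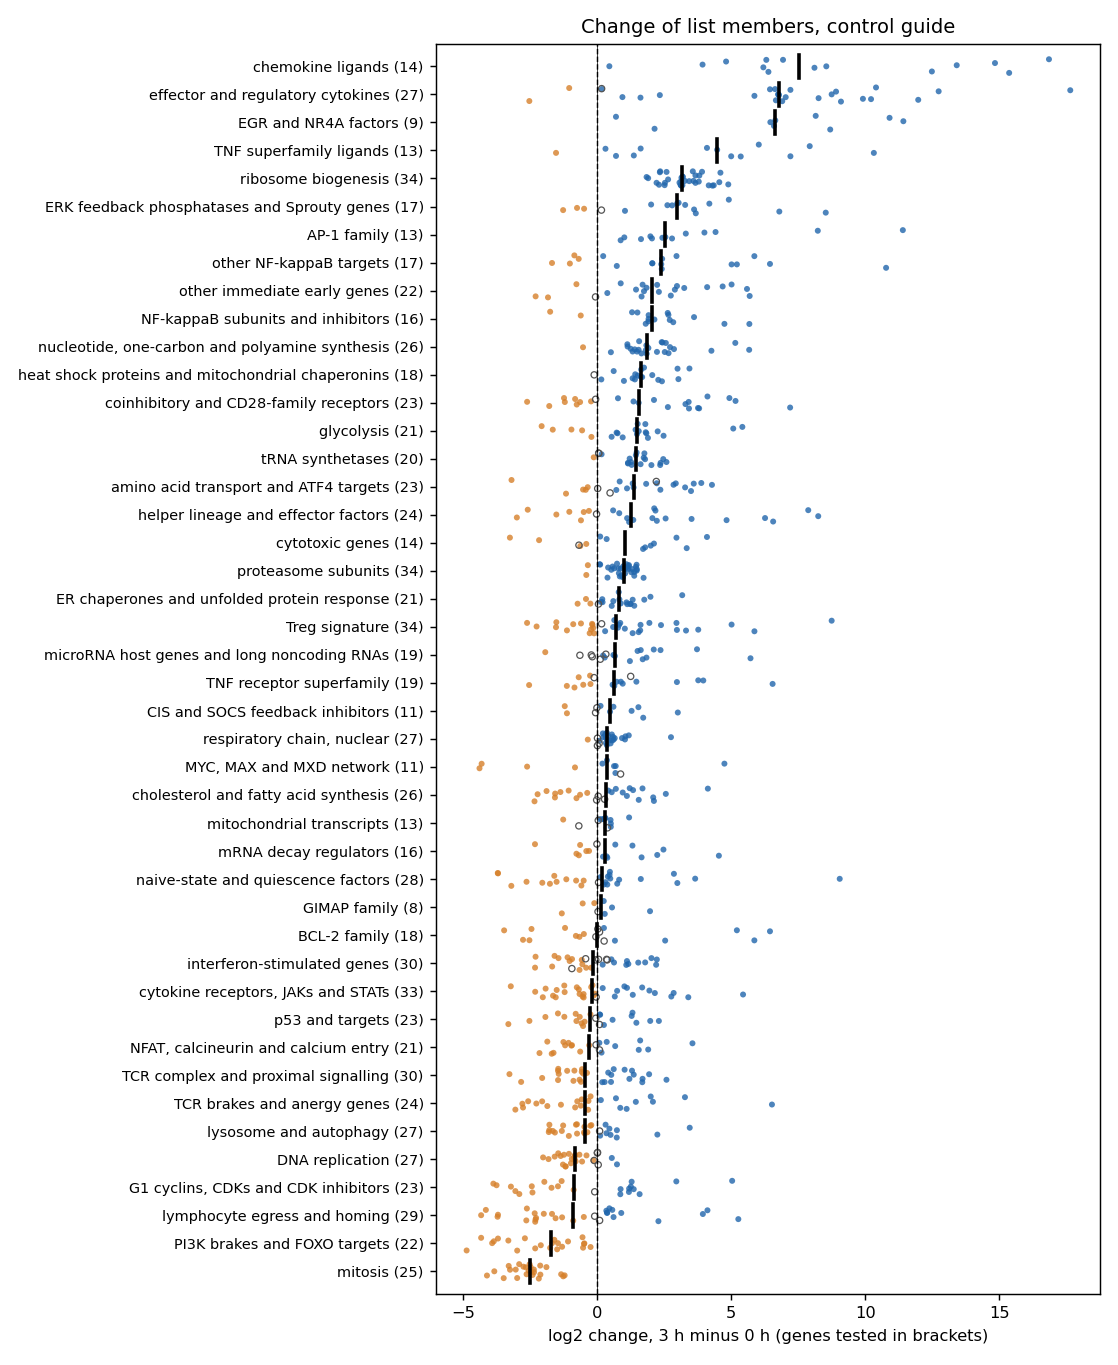
Log2 change (3 h minus 0 h, control guide, horizontal axis) of the tested members of 44 gene lists (rows, ordered by median); each point is 1 gene, filled if called (blue higher, orange lower) and open if not, with vertical offsets only to part the points, a black bar marks the list's median and the dashed line the median of all genes tested, -0.010. Chemokine ligands, cytokines and EGR and NR4A factors lie at the top, with medians of 7.52, 6.78 and 6.65; all ribosome biogenesis points lie right of 0, and all mitosis and all PI3K brake and FOXO target points left of it.

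The 3 cell cycle lists had negative medians. Of G1 cyclins, CDKs and CDK inhibitors, 10 of 23 tested genes rose, 12 fell and 1 did not pass the test, with a median log2 change of -0.87. Ccnd2, cyclin D2, measured 401 and 415 CPM at 0 h and 3265 and 3055 CPM at 3 h, a log2 change of 2.95 ± 0.044. Its partner kinases rose less and other G1 cyclins fell: Cdk4 and Cdk6 rose (log2 changes 1.26 ± 0.040 and 1.19 ± 0.042), and Ccnd3 and Ccne1 fell (log2 changes -2.44 ± 0.042 and -2.41 ± 0.082). Cdkn1b (p27), an inhibitor that keeps T cells in quiescence, measured 472 and 434 CPM at 0 h and 34.1 and 33.2 CPM at 3 h, a log2 change of -3.75 ± 0.048. Both 3 h libraries of Cdkn1b lay more than 10 times below those of 0 h, whereas Cdkn1a (p21) rose from 223 to 545 CPM (log2 change 1.29 ± 0.040). E2f2 and Rbl2 fell (log2 changes -3.87 ± 0.057 and -3.22 ± 0.047), and Ccne2, which did not pass the test, averaged 8.21 CPM at 0 h and 7.72 CPM at 3 h (log2 change -0.090 ± 0.084), and was called lower on the log2(TPM+1) scale (-0.51) and with upper-quartile scaling (-0.33). DNA replication genes mostly fell: 2 of 27 tested genes rose, 21 fell and 4 did not pass the test, with a median log2 change of -0.84. Rrm2 and Cdc6 fell (log2 changes -2.02 ± 0.050 and -1.58 ± 0.088), a subunit of ribonucleotide reductase and a loader of replicative helicases, while Orc1 and Pcna rose (log2 changes 0.74 ± 0.12 and 0.55 ± 0.039).

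Mitosis genes fell in every case: 0 of 25 tested genes rose, 25 fell and 0 did not pass the test, with a median log2 change of -2.52, and 25 fell at least 2-fold, against 24.2% of all genes tested. Mki67, the gene of the proliferation antigen Ki-67, measured 293 and 317 CPM at 0 h and 60.3 and 54.8 CPM at 3 h, a log2 change of -2.41 ± 0.052. Nusap1, Cenpf, Tpx2 and Top2a fell (log2 changes -4.11 ± 0.088, -3.83 ± 0.10, -3.04 ± 0.075 and -2.12 ± 0.046), genes of spindle, kinetochore and chromosome structure. Cdc25b, a phosphatase that promotes entry into mitosis, was among the largest falls of the whole comparison, from 269.6 to 6.68 CPM (log2 change -5.34 ± 0.062). In bulk RNA, fewer cells of a kind, such as dividing cells, and less of a transcript in each cell cannot be told apart.

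Host genes of microRNAs and other long noncoding RNAs leaned higher: 13 of 19 tested genes rose, 1 fell and 5 did not pass the test, with a median log2 change of 0.66 (0.43 with upper-quartile scaling and 0.17 on log2(TPM+1)). Mir155hg, the host of miR-155, which is needed for Treg fitness, measured 6.5 and 4.22 CPM at 0 h and 275 and 286 CPM at 3 h, a log2 change of 5.72 ± 0.19. Mir17hg, the host of the miR-17-92 cluster, measured 17.1 and 15.7 CPM at 0 h and 209.7 and 224 CPM at 3 h, a log2 change of 3.72 ± 0.054. The mature microRNAs were not measured; their sequences (RefSeq, GRCm38.p6) are shown, grouped by shared seed (bases 2 to 8, in capitals), because the host transcripts of both loci rose in both stimulated libraries. The 6 members of the cluster lie on chromosome 14, plus strand, between 115043684 and 115044496, and miR-155-5p at chr16:84714143-84714165, plus strand.
miR-155-5p: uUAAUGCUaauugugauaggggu
miR-17-5p: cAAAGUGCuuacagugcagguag
miR-20a-5p: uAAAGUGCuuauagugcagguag
miR-18a-5p: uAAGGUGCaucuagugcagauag
miR-19a-3p: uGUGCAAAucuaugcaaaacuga
miR-19b-3p: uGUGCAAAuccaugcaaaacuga
miR-92a-3p: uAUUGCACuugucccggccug
Here miR-17-5p and miR-20a-5p share a seed, as do miR-19a-3p and miR-19b-3p. Neat1, a nuclear architectural RNA, fell from 1489 to 389.6 CPM (log2 change -1.93 ± 0.052), while Malat1, which did not pass the test, averaged 2080.4 CPM at 0 h and 1789 CPM at 3 h (log2 change -0.22 ± 0.10), and was called lower on the log2(TPM+1) scale (-0.54) and with upper-quartile scaling (-0.45). Malat1 was also called lower without the gene filter (log2 change -0.23) and with the 4 control-guide libraries alone (log2 change -0.22). Host genes of small nucleolar RNAs were among the risers: Snhg15, Snhg1 and Gas5 rose (log2 changes 2.36 ± 0.050, 2.11 ± 0.044 and 1.22 ± 0.043).

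In the BCL-2 family, 6 of 18 tested genes rose, 8 fell and 4 did not pass the test, with a median log2 change of -0.010 (-0.25 with upper-quartile scaling and -0.38 on log2(TPM+1)). Besides Bcl2l1, the closely similar survival genes Bcl2a1b and Bcl2a1d, whose separate values are uncertain, rose from 3.08 to 179.6 CPM (log2 change 5.86 ± 0.080) and from 0.505 to 43.9 CPM (log2 change 6.45 ± 0.18). Death genes of the BH3-only class mostly fell: Bmf, Bbc3 (PUMA), Bad and Bcl2l11 (BIM) fell (log2 changes -3.47 ± 0.17, -2.53 ± 0.064, -2.45 ± 0.12 and -1.2 ± 0.039), whereas Bid rose (log2 change 2.54 ± 0.059). Bcl2 fell (log2 change -0.66 ± 0.039), and Mcl1, which did not pass the test, averaged 533 CPM at 0 h and 516 CPM at 3 h (log2 change -0.046 ± 0.039), and was called lower on the log2(TPM+1) scale (-0.41) and with upper-quartile scaling (-0.28). Of p53 and its targets, 9 of 23 tested genes rose, 12 fell and 2 did not pass the test, with a median log2 change of -0.25 (-0.49 with upper-quartile scaling and -0.61 on log2(TPM+1)). Aen and Cdkn1a rose (log2 changes 1.98 ± 0.041 and 1.29 ± 0.040), and Sesn1 and Bbc3 fell (log2 changes -3.31 ± 0.044 and -2.53 ± 0.064). Trp53 itself went from 136 to 145 CPM (log2 change 0.10 ± 0.037). It had a log2 change of -0.14 with upper-quartile scaling and a log2 change of -0.28 on the log2(TPM+1) scale, and the call was lost without replicate 1 of 0 h (log2 change 0.075) or replicate 2 of 3 h (log2 change 0.074). Of cytotoxic genes, 9 of 14 tested genes rose, 4 fell and 1 did not pass the test, with a median log2 change of 1.03 (0.55 on log2(TPM+1)). Nkg7, Srgn and Prf1 rose (log2 changes 3.34 ± 0.094, 2.12 ± 0.041 and 1.71 ± 0.10), and Ctsw and Gzma fell (log2 changes -0.63 ± 0.041 and -0.40 ± 0.18). The Gzma call was lost without replicate 1 of 0 h (log2 change -0.21), replicate 1 of 3 h (log2 change -0.32) or replicate 2 of 3 h (log2 change -0.49), and with DESeq2 (log2 change -0.42). Of interferon-stimulated genes, 11 of 30 tested genes rose, 13 fell and 6 did not pass the test, with a median log2 change of -0.14 (-0.37 with upper-quartile scaling). GTPases of the interferon gamma response were among the risers: Igtp, Gbp4 and Irgm1 rose (log2 changes 2.2 ± 0.038, 2.03 ± 0.041 and 1.79 ± 0.038). Typical type I interferon genes were among those that fell: Ifit2, Rsad2 and Ifit3 fell (log2 changes -2.32 ± 0.076, -2.3 ± 0.30 and -1.68 ± 0.18). Of the GIMAP family of lymphocyte GTPases, 4 of 8 tested genes rose, 3 fell and 1 did not pass the test, with a median log2 change of 0.14, a median that was negative with upper-quartile scaling and on the TPM scales (-0.21 on log2(TPM+1)). Gimap5 rose (log2 change 1.97 ± 0.039) and Gimap7 fell (log2 change -1.32 ± 0.047).

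Some genes went from no count to a clear level. Of the genes tested, 154 had 0 counts in both 0 h libraries; 30 of them reached at least 1 CPM at 3 h, and 5 at least 10 CPM. These 5 were Il3, Ccl1, Il31, Exosc6 and Idi2. Exosc6 is a single-exon gene that overlaps Aars on the same strand, so its 17.1 and 22.2 CPM at 3 h are uncertain; Aars rose from 56 to 124 CPM (log2 change 1.15 ± 0.040). Idi2, a relative of the isoprenoid gene Idi1, was at least 527-fold higher at 3 h. In the other direction, 80 genes had 0 counts at 3 h, and 0 of them had reached 1 CPM at 0 h. The well-expressed genes with the largest falls kept a measurable level: Rflnb fell from 28.8 to 0.455 CPM (log2 change -5.97 ± 0.21), and Kctd12b fell from 40.6 to 1.7 CPM (log2 change -4.57 ± 0.11). Pimreg, St8sia1, Thra and Pde2a fell (log2 changes -5.24 ± 0.23, -4.49 ± 0.064, -4.43 ± 0.090 and -4.37 ± 0.057), the last a cyclic nucleotide phosphodiesterase. Frmd8, Nacc2, Fgfr1 and Mturn fell (log2 changes -4.25 ± 0.048, -4.16 ± 0.14, -4.15 ± 0.14 and -4.14 ± 0.061), the others among the 15 largest falls. Among the 15 largest rises were also Cxcl2, a chemokine gene, at 0 and 0.0204 CPM at 0 h and 71.2 and 76.4 CPM at 3 h, a ratio of 6915-fold, with a counting interval of 1241 to 273161, and Crabp2, the gene of a retinoic acid binding protein, at 0.0447 and 0.0204 CPM at 0 h and 39.9 and 42.9 CPM at 3 h, a ratio of 1292-fold, with a counting interval of 442 to 6269.5.

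Markers of other cells were read as whole lists, and their part in the changes above was not tested. T cell markers summed to 2480.3 and 2516 CPM at 0 h and 2833 and 2883 CPM at 3 h, and of 8 genes 8 were tested, 3 rose and 5 fell. B cell markers summed to 948 and 947 CPM at 0 h and 97.5 and 99.8 CPM at 3 h, and of 8 genes 5 were tested, 1 rose and 4 fell. Nearly all of the B cell sum was Ighm, the immunoglobulin mu gene, from 926 to 88.7 CPM (log2 change -3.39 ± 0.040), while the defining genes Ms4a1 and Pax5 were too low to test. Of the 5 tested, 4 fell and 1 rose at least 2-fold, with a median log2 change of -2.77 (-1.79 on log2(TPM+1)), so Ighm was not the only member that fell. CD8 markers summed to 7.08 and 7.69 CPM at 0 h and 6.42 and 6.23 CPM at 3 h, and of 2 genes 2 were tested, 0 rose and 1 fell. NK cell markers summed to 2.35 and 2.02 CPM at 0 h and 9.43 and 9.37 CPM at 3 h, and of 4 genes 2 were tested, 1 rose and 0 fell. Ncr1 and Klra8 were at 0 in all 4 libraries, and the riser was Eomes, which T cells also express. Myeloid markers summed to 63.6 and 65.6 CPM at 0 h and 56.1 and 60.9 CPM at 3 h, and of 9 genes 5 were tested, 2 rose and 2 fell. Most of the sum was Cst3, from 61.4 to 55.2 CPM (log2 change -0.15 ± 0.050), a call lost without replicate 2 of 0 h (log2 change -0.14) or replicate 1 of 3 h (log2 change -0.092). Erythroid markers summed to 10.7 and 9.99 CPM at 0 h and 7.86 and 8.14 CPM at 3 h, and of 6 genes 3 were tested, 0 rose and 1 fell; Hba-a1 and Hba-a2 are near-identical copies. Stromal markers summed to 202 and 212 CPM at 0 h and 30.7 and 30.2 CPM at 3 h, and of 7 genes 3 were tested, 0 rose and 1 fell. Nearly all of the sum was Pecam1, which T cells also express, from 206 to 29.9 CPM (log2 change -2.78 ± 0.044), and Col3a1 was at 0 in all 4 libraries. The lists thus stayed low apart from Ighm, Pecam1 and Cst3, and the first 2 of these fell with stimulation.

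How far the response of control-guide cells was shared by Foxp3-guide cells was tested as the difference of the 2 responses, which rest on separate libraries. The difference (control guide minus Foxp3 guide, edgeR interaction) was called in 7457 of 16642 genes (44.8%), more positive with the control guide in 4497 (27%) and more negative in 2960 (17.8%), and was called and at least 2-fold in 1557 (9.36%). That balance depended on scaling: 60.3% of the called differences were positive with TMM scaling and 48.5% to 51.3% with RLE or upper-quartile scaling, with DESeq2, on the TPM scales, and when replicate 2 of the Foxp3-guide 3 h libraries was left out. At any size, the difference was called in 8 of 25 mitosis, 17 of 27 replication and 18 of 34 proteasome genes. It was also called in 27 of 34 ribosome biogenesis, 16 of 23 G1 and 8 of 11 MYC network genes. The median change of ribosome biogenesis genes was 3.18 in control-guide cells and 3.71 in Foxp3-guide cells. Called differences of at least 2-fold were found in 0 of 25 mitosis, 0 of 27 replication and 0 of 34 proteasome genes. They were found in 2 of 34 ribosome biogenesis genes, 5 of 23 G1 genes and 3 of 11 MYC network genes. Among surface and migration lists they were found in 13 of 29 egress and homing genes, 7 of 19 TNF receptors and 13 of 34 Treg signature genes, the last a list defined by Foxp3-expressing cells; the lists were not tested against each other. Some leading genes of the response had changes close to each other: Egr2 changed by 11.42 ± 0.23 in control-guide cells and 11.81 ± 0.17 in Foxp3-guide cells, and Nfkbia by 1.92 ± 0.043 and 1.96 ± 0.043, and neither difference passed the test. Irf4 changed by 4.83 ± 0.044 in control-guide cells and by 5.22 ± 0.043 in Foxp3-guide cells, a difference of -0.39 ± 0.061.

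Among the genes that fell, 3 quiescence and egress genes had the smaller response with the control guide. Klf2 changed by -3.7 ± 0.054 in control-guide cells and by -6.23 ± 0.087 in Foxp3-guide cells, a difference of 2.53 ± 0.10. S1pr1 changed by -4.33 ± 0.045 in control-guide cells and by -6.61 ± 0.053 in Foxp3-guide cells, a difference of 2.28 ± 0.069. Tcf7 changed by -2.63 ± 0.043 in control-guide cells and by -4.73 ± 0.040 in Foxp3-guide cells, a difference of 2.1 ± 0.059. At 3 h these genes averaged 20.1, 41.8 and 29 CPM in control-guide cells and 2.7, 9.23 and 35.4 CPM with the Foxp3 guide, in that order. Among those that rose, the growth regulator Myc changed by 4.75 ± 0.043 in control-guide cells and by 7.0 ± 0.052 in Foxp3-guide cells, a difference of -2.25 ± 0.067. Il2ra changed by 1.95 ± 0.041 in control-guide cells and by 3.36 ± 0.042 in Foxp3-guide cells, a difference of -1.41 ± 0.059. Their 0 h levels differed as well: Myc averaged 45.1 CPM in control-guide cells and 8.63 CPM in Foxp3-guide cells, and Il2ra 1298 and 266 CPM. At 3 h Myc averaged 1212 and 1104 CPM, whereas Il2ra averaged 5014 and 2735 CPM and so stayed lower with the Foxp3 guide. A larger response with the control guide was seen for other genes: Ccr8 changed by 3.94 ± 0.047 in control-guide cells and by 1.65 ± 0.037 in Foxp3-guide cells, a difference of 2.29 ± 0.060. Tbx21 changed by 8.25 ± 0.12 in control-guide cells and by 5.89 ± 0.062 in Foxp3-guide cells, a difference of 2.36 ± 0.14. Ctla4 rose with the control guide (0.78 ± 0.044) and fell with the Foxp3 guide (-0.34 ± 0.044), a difference of 1.12 ± 0.063.

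**Figure D5:**
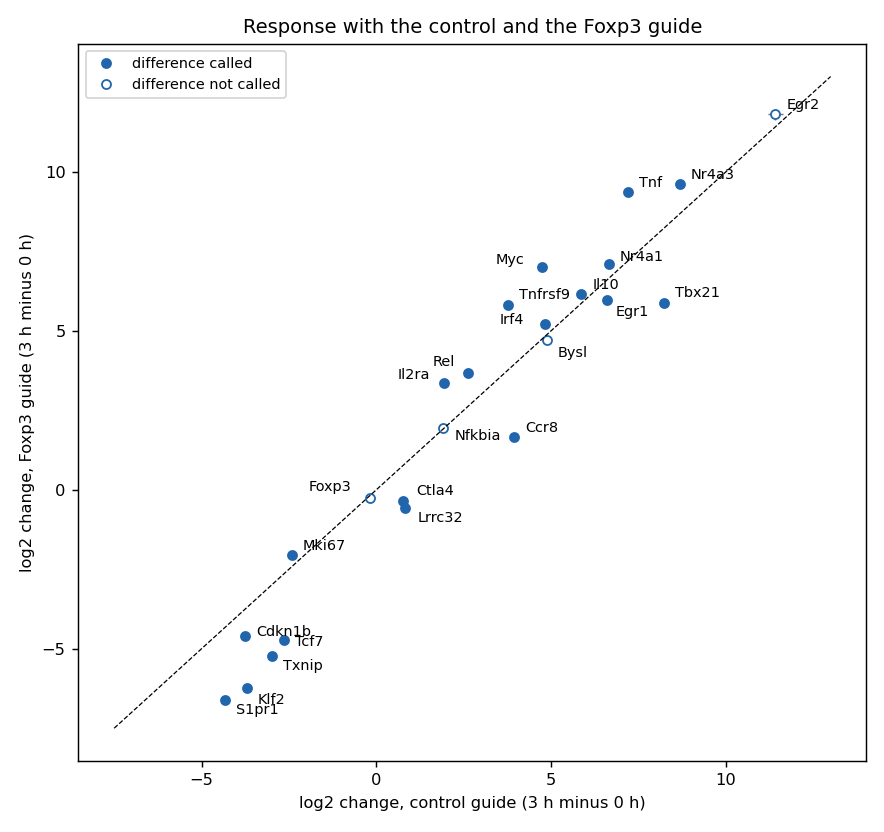
Log2 change at 3 h in Foxp3-guide cells (vertical axis) against that in control-guide cells (horizontal axis) for 24 named genes, with bars of 1 SE in each direction; filled points have a called difference between the guides and open points do not, and the dashed line marks equal change. Klf2, S1pr1 and Tcf7 lie below the line, as do Ccr8 and Tbx21, and Myc, Tnf and Il2ra above it, while Nfkbia and Egr2 lie near it.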

How the data were processed

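RNA-seq libraries of 2 replicates in each of 4 groups were compared. Per the submitters' processing notes, Trim Galore 0.6.3, STAR 2.7.9a and RSEM 1.3.1 were used with mm10. The deposited values are labelled stranded, but the strand orientation and the annotation release are not given in the sources used here. Per the column headers, the authors deposited RSEM expected counts per gene and, separately, the TPM of the same libraries, a value per transcript length and library. Expected counts were rounded to whole numbers, filtered with filterByExpr and scaled with TMM. The edgeR 4.0.16 quasi-likelihood test (R 4.3.3, limma 3.58.1) used a fit over all 8 libraries, each group with its own mean, since 4 libraries alone leave little to estimate the spread from, and p-values were adjusted by Benjamini-Hochberg over all 16642 genes tested. Standard errors are Wald errors of that fit, and counting intervals (95%) and floors (3 counts over a group) cover counting error only.

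Totals ran from 38729009 to 48626432 expected counts in the control-guide and from 55865290 to 94807362 in the Foxp3-guide libraries, and 0 columns of other samples were found. No 2 libraries of a group agreed within sampling noise. Of the genes tested, 16483 were matched by identifier and version to GENCODE M21 (GRCm38), from which positions and untranslated regions come. Promoter and microRNA sequences come from RefSeq tables of GRCm38.p6.

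The genes named were the 15 largest rises and 15 largest falls among calls whose average log2 CPM over the control-guide libraries was 3 or more, the 8 largest gains and losses in CPM, up to 4 called members per direction of each gene list with some members that did not pass, and a fixed set of Treg and TCR response genes. Exosc6, Idi2, Ighm, Pecam1 and others named for a count or a role were chosen after their values were seen, and some genes that the rule picks are not reported here. The members and lists were chosen with earlier results of these data known. The edgeR fit was tested on simulated counts in which only a small part of the genes changed. That test does not cover scaling when most genes change, as they did here. Alternatives were RLE and upper-quartile scaling, DESeq2 1.42.0, no gene filter, the 4 control-guide libraries alone, a replicate block, limma on log2(TPM+1) and log2(TPM+0.1), and each library left out in turn.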

Additional observations from a re-analysis of the deposited data

Results flagged for a closer look

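For 21 genes named in the report, the log2 change with the control guide and that with the Foxp3 guide differed by at least 2 (edgeR interaction, adjusted over all genes tested, called at 0.05). Below, a difference is control guide minus Foxp3 guide, with its SE.

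Among genes that fell with both guides, the fall was smaller with the control guide for Kctd12b (2.81 ± 0.45), Klf2 (2.53 ± 0.10), S1pr1 (2.28 ± 0.069), Txnip (2.24 ± 0.061) and Tcf7 (2.10 ± 0.059). Trib3, an ATF4 target, fell further with the control guide (-2.47 ± 0.13).

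Among genes that rose with both guides, the rise was smaller with the control guide for the receptors Il1r2 (-2.48 ± 0.19) and Tnfrsf9 (-2.05 ± 0.064), the microRNA host Mir155hg (-2.43 ± 0.43) and the TGF-beta activator Itgb8 (-2.33 ± 0.096). The same held for the feedback regulators Dusp4 (-2.36 ± 0.074), Cish (-2.14 ± 0.057) and Rgs16 (-2.08 ± 0.092), for Myc (-2.25 ± 0.067), and for the cytokine and chemokine genes Il12a (-3.18 ± 0.89), Tnf (-2.16 ± 0.0999) and Ccl5 (-2.10 ± 0.088). The Il12a value rests on 0.0288 CPM at 0 h with the Foxp3 guide, and the calls of Il12a and Ccl5 with the control guide were lost on the log2(TPM+1) scale.

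The rise was larger with the control guide for Gadd45g (2.42 ± 0.15), Tbx21 (2.36 ± 0.14), Ccr8 (2.29 ± 0.060) and the ligand Tnfsf14 (2.12 ± 0.20). Levels at 0 h differed between the guides for several of these genes: Tnfsf14 averaged 3.66 CPM with the Foxp3 guide, Tbx21 4.02 CPM and Tcf7 941 CPM, against 0.471, 1.11 and 180 CPM with the control guide, in that order, and the part of that in the differences was not tested.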

How the results depend on the processing

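The number of called genes ran from 12613 (DESeq2) to 13914 (no gene filter) around 13620, and that of called genes at least 2-fold changed from 5303 (log2(TPM+1)) to 8047 (no gene filter) around 7662. The difference between guides was called in 7457 genes, in 5871 with DESeq2, and in 4843 on log2(TPM+1) without a gene filter. Leaving out 1 library at a time gave 13051 to 13189 called genes, 7538 to 7585 at least 2-fold, and 6541 to 7323 differences. Across 9622 genes, the deviations of same-numbered libraries had a correlation of -0.0036 between 0 h and 3 h of the control guide, and from -0.19 to 0.20 over the 6 pairs of groups (0.20 between both 3 h groups), so the numbers were not taken as pairs. With a replicate block 13527 genes were called, 7628 at least 2-fold, and 7240 differences; the block also called Malat1 lower (-0.21). Of 347 named genes, 4 changed sign under an alternative. With upper-quartile scaling Ebi3 was -0.069 and Trp53 -0.14; with log2(TPM+1), with or without the gene filter, Ebi3 was -0.19, Ltb -0.064, Max -0.11 and Trp53 -0.28; with log2(TPM+0.1) they were -0.20, -0.064, -0.11 and -0.28. Of 339 called genes named, 20 kept their sign but moved by over 1.5 times with upper-quartile scaling, all with changes below 1 on the log2 scale, and 73 on log2(TPM+1). The cause was not tested. Depth limits genes at or near 0 counts at 0 h, such as Il3, Ccl1 and Ccl4, whose fold changes are bounds or wide intervals. Groups of 2 libraries make the errors rest on the spread shared by all 4 groups.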
